A study of Mus musculus with 8 samples.

Results

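The transcripts of 9 genes that mark early lymphoid priming, Flt3, Il7r, Dntt, Rag1, Rag2, Notch1, Satb1, Ccr9 and Ikzf1, were followed through RNA sequencing of bone marrow stem and progenitor cells from normal mice and from mice with chronic myeloid leukaemia (CML). The genes were found by their symbols, and all 9 were among the 20207 genes of each of the 8 libraries. The values are RPKM, reads per kilobase of transcript scaled to the reads of the library, a level that can be compared between genes. The main pattern was one of stage. Flt3, Dntt, Satb1, Notch1 and Ikzf1 were higher in short-term (ST) than in long-term (LT) stem cells, whereas Il7r, Rag1, Rag2 and Ccr9 stayed below 1 RPKM in every library. Between CML and normal LT cells, Flt3 alone of the 8 genes that could be tested differed past the threshold and was higher in CML. Its call was lost when any 1 of the 4 LT libraries was left out, in fits that called fewer of all genes tested.

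Normal cells came from 4 libraries. These were 2 of LT haematopoietic stem cells (LT-HSC 1, labelled 2 months old, and LT-HSC 2, labelled 6 months old), 1 of ST-HSCs and 1 of KLS- progenitors, the last pair also labelled 2 months old. CML cells came from 2 LT libraries (LT-CML 1 and LT-CML 2), 1 ST library (ST-CML) and 1 KLS- library (CML-KLS-), for which no age is given. LT cells were sorted as CD150+CD48-CD135-KLS+, ST cells as CD150-CD48-CD135-KLS+, and KLS- progenitors as cKit+Lin-Sca-1-. CD135 is the FLT3 protein, so both stem cell gates took cells without detectable surface FLT3, and the KLS- gate did not use it. In the study's methods, CML mice carry Tal1-tTA and TRE-BCR-ABL1, so that BCR-ABL1 is made in the stem cell compartment once doxycycline is withdrawn, and normal mice are littermates that carry Tal1-tTA without BCR-ABL1. The Tal1 element limits expression of the oncogene to cells in which it is active. The labels name the strain C57BL/6 for every library and the methods name FVB/N, and the methods give other ages for the mice. The number of mice behind each library is not given in the sources used here. The LT-HSC libraries differ in labelled age, so the spread within that group includes a difference in age, and the p-values below measure the spread between these libraries. ST and KLS- cells had 1 library for each disease. In the comparisons of stages, the spread therefore also includes any departure of the stage difference between normal and CML cells.

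Lymphoid priming is the low-level switching on of lymphoid genes in multipotent cells that can still make myeloid cells. FLT3 is the receptor tyrosine kinase whose rise marks the passage from stem cell to multipotent and lymphoid-primed progenitor, and IL-7 receptor signalling takes over in common lymphoid progenitors. Dntt, Rag1 and Rag2 belong to the machinery that assembles antigen receptor genes. Ikzf1, Satb1 and Notch1 act upstream of B and T cell commitment, and Ccr9 directs progenitors to the thymus.

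The promoter windows of the 3 genes that changed most between ST and LT cells are shown here, each of 250 bases up to the base before the RefSeq transcription start and written along the gene's strand. All 9 genes had a window in the RefSeq table. Satb1 had 5 starts, and the farthest upstream is shown. Capitals mark a match to the core of PU.1, GAGGAA or its reverse complement TTCCTC, a factor of lymphoid and myeloid progenitors.

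Flt3 (GRCm38.p6, chr5:147400490-147400739, minus strand): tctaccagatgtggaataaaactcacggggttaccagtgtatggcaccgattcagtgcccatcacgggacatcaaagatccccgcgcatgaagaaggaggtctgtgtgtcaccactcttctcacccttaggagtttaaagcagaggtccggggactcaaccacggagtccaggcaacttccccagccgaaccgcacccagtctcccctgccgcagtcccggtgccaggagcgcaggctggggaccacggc

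Dntt (GRCm38.p6, chr19:41029025-41029274, plus strand): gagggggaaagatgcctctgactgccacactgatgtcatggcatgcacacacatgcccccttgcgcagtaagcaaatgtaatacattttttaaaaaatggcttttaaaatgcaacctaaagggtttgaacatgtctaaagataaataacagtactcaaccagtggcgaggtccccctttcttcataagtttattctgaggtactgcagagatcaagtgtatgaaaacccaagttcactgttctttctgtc

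Satb1 (GRCm38.p6, chr17:51833291-51833540, minus strand): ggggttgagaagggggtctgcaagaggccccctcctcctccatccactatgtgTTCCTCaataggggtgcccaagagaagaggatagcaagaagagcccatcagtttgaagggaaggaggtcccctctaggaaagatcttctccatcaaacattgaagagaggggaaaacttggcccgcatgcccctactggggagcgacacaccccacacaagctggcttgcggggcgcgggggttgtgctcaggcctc

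On either strand, 4 short motifs were searched for in these windows. They were the PU.1 core GAGGAA, held by 23.3% of all 32851 windows of the same length, the E protein E-box CAGGTG (17.2%), the RUNX core TGTGGT (14.1%) and the Ikaros core TGGGAA (21.6%). The Flt3 and Dntt windows held no match to these letters, and the Satb1 window shown held 1 PU.1 core. The Satb1 windows not shown, numbered from the farthest upstream, held none at start 2, 1 E-box at start 3 and 2 PU.1 cores at start 4. The window at start 5, which overlaps that of start 4, held 1 PU.1 core and 1 Ikaros core. Among the other genes, the windows of Notch1 and Rag2 held 1 PU.1 core each, that of Ccr9 held 1 E-box, and that of Rag1 held 1 E-box, 2 RUNX cores and 1 Ikaros core. The windows of Il7r and Ikzf1 held none of the 4. With shares of this size in all windows, the matches are a description of the letters and say nothing of binding.

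The libraries were of similar depth, an estimated 17.8 to 23.9 M reads, so that differences in depth between libraries were at most 1.34 times. Of the 9 genes, 8 had a total above 1 RPKM over the 8 libraries and entered the tests, and Rag1 did not. The sorts were reflected in part of the transcripts examined. Slamf1, which encodes CD150, was between 10.7 and 35.5 RPKM in LT libraries against 1.11 in ST-HSC and 2.87 in ST-CML, and the summed level of 9 HSC genes was 294 to 443 RPKM in LT and ST libraries against 34.0 and 21.3 RPKM in the KLS- libraries. Cd48 transcript was higher in the ST libraries (41.8 and 45.2 RPKM) than in the LT libraries (5.17 to 29.5 RPKM), although both gates excluded CD48. Flt3 transcript was highest in the ST libraries (61.6 and 71.6 RPKM), although both gates also excluded CD135. The Y-linked gene Ddx3y was at 31.0 RPKM in LT-HSC 2 and 17.5 RPKM in LT-CML 2 and at most 0.0625 RPKM elsewhere. Thus 1 library in each LT group held RNA of male cells. Xist, a transcript of female cells, was at 0.154 RPKM in LT-HSC 2, 13.5 RPKM in LT-CML 2 and 12.4 to 30.8 RPKM elsewhere. LT-CML 2 therefore held RNA of both sexes. The LT-HSC libraries came from different mice, and whether the LT-CML libraries share mice is not known. In bulk libraries, a larger share of cells of a type and more RNA per cell cannot be told apart.

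**Figure D1:**
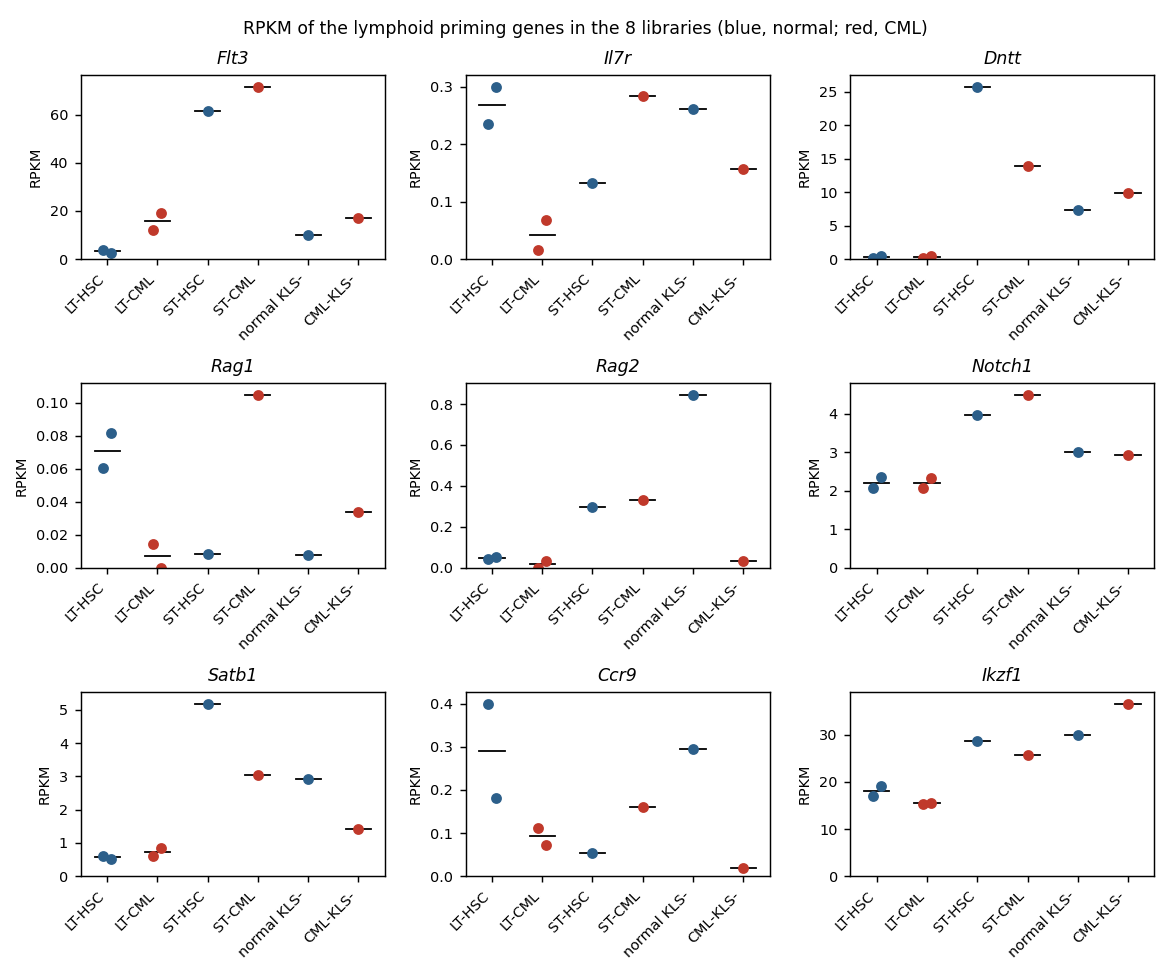
RPKM (linear axes from 0, a separate scale for each gene) of the 9 lymphoid priming genes in each population, with 1 point for a library, blue for normal and red for CML, and a bar at the mean. Flt3, Dntt, Satb1 and Notch1 are highest in the ST libraries, and the LT-CML points for Flt3 (11.9 and 19.2 RPKM) lie above those for LT-HSC (3.95 and 2.52 RPKM).

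Flt3 (ENSMUSG00000042817.9, mm9 chr5:148142317-148212065, minus strand, 25 exons) was at 3.95 RPKM in LT-HSC 1 and 2.52 RPKM in LT-HSC 2, and at 11.9 RPKM in LT-CML 1 and 19.2 RPKM in LT-CML 2. It reached 61.6 RPKM in ST-HSC and 71.6 RPKM in ST-CML, and stood at 10.02 RPKM in the normal KLS- library and 17.1 RPKM in the CML one. The order of the populations was thus ST-CML, ST-HSC, CML-KLS-, LT-CML, normal KLS- and LT-HSC, with CML-KLS- inside the range of the LT-CML libraries. The populations with 1 library have no spread of their own, so their neighbours in this order could not be told apart by replicates.

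Dntt (ENSMUSG00000025014.6, mm9 chr19:41103765-41134013, plus strand, 12 exons) encodes terminal transferase, which adds untemplated bases at the joints of antigen receptor genes. It was nearly silent in LT cells, at 0.218 and 0.465 RPKM in LT-HSC 1 and 2 and 0.0933 and 0.504 RPKM in LT-CML 1 and 2, values that rest on 4 to 23 reads. It was at 25.8 RPKM in ST-HSC, 13.9 RPKM in ST-CML, 7.25 RPKM in normal KLS- cells and 9.82 RPKM in their CML counterpart. No LT library overlapped an ST or KLS- library.

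Satb1 (ENSMUSG00000023927.7, mm9 chr17:51875512-51972615, minus strand, 12 exons), a chromatin organiser of lymphoid progenitors and thymocytes, followed the same order of stages at lower levels. It was at 0.618, 0.523, 0.611 and 0.842 RPKM in LT-HSC 1, LT-HSC 2, LT-CML 1 and LT-CML 2. It was at 5.19 RPKM in ST-HSC, 3.05 RPKM in ST-CML, 2.93 RPKM in normal KLS- and 1.43 RPKM in CML-KLS- cells. Within both the ST and the KLS- stage the CML library had the lower value.

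Notch1 (ENSMUSG00000026923.8, mm9 chr2:26313423-26372183, minus strand, 34 exons), the receptor that directs T cell commitment, varied far less. It was at 2.07 and 2.35 RPKM in LT-HSC 1 and 2 and at 2.06 and 2.33 RPKM in LT-CML 1 and 2, so that the LT groups overlapped. It was at 3.98 RPKM in ST-HSC, 4.48 RPKM in ST-CML, 2.997 RPKM in normal KLS- cells and 2.92 RPKM in those of CML mice. Ikzf1 (ENSMUSG00000018654.10, mm9 chr11:11585006-11672929, plus strand, 9 exons), which encodes the zinc finger factor Ikaros, was well expressed in every library. It was at 17.1 and 19.1 RPKM in LT-HSC 1 and 2, 15.4 and 15.6 RPKM in LT-CML 1 and 2, 28.6 RPKM in ST-HSC, 25.7 RPKM in ST-CML, 29.9 RPKM in normal KLS- and 36.6 RPKM in CML-KLS- cells. In the annotation, 2 long noncoding RNAs on the opposite strand share 1068 and 414 exon bases with Notch1, whose reads could not be told apart without strand. Unlike Flt3, Dntt and Satb1, Ikzf1 had KLS- values that were no lower than its ST values.

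Between ST and LT cells, with disease as a second term in a limma fit to all 8 libraries on the log2(RPKM + 1) scale, 5 of the 8 genes tested were higher in ST cells and 0 were lower, where 2.13% of all 12561 genes tested were higher and 2.74% lower. The median difference over the 8 genes was 0.69 on this scale, against -0.01 over all genes tested. Dntt showed the largest difference, 3.93 (SE 0.25, adjusted p = 0.000347), followed by Flt3 at 3.04 (SE 0.38, adjusted p = 0.00391) and Satb1 at 1.61 (SE 0.20, adjusted p = 0.0043). Notch1 rose by 0.71 (SE 0.13, adjusted p = 0.0201) and Ikzf1 by 0.67 (SE 0.15, adjusted p = 0.0359). As ratios of RPKM, the ST library was 75.4 times the LT mean for Dntt in normal cells and 46.4 times in CML cells, 19.1 and 4.59 times for Flt3, 9.09 and 4.20 times for Satb1, 1.80 and 2.04 times for Notch1 and 1.59 and 1.66 times for Ikzf1. All 5 genes were above every LT library in both ST libraries.

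These 5 calls were not equally firm, since the ST stage had 2 libraries. Dntt and Flt3 passed the threshold whichever library was left out, with differences of 3.46 to 4.40 and 2.37 to 3.70. Satb1 lost its call without ST-HSC (1.37, adjusted p = 0.0671). Notch1 lost it without ST-HSC (adjusted p = 0.144), ST-CML (0.255), LT-HSC 1 (0.0561) or LT-CML 1 (0.0529), and Ikzf1 without ST-HSC (0.326), ST-CML (0.229), LT-HSC 1 (0.0837), LT-CML 1 (0.0779) or LT-CML 2 (0.0868), with differences of 0.63 to 0.78 and 0.61 to 0.72. The other 3 genes tested, Rag2, Il7r and Ccr9, differed by 0.35, 0.07 and -0.10 and did not pass (adjusted p = 0.308, 0.797 and 0.718 from limma).

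**Figure D2:**
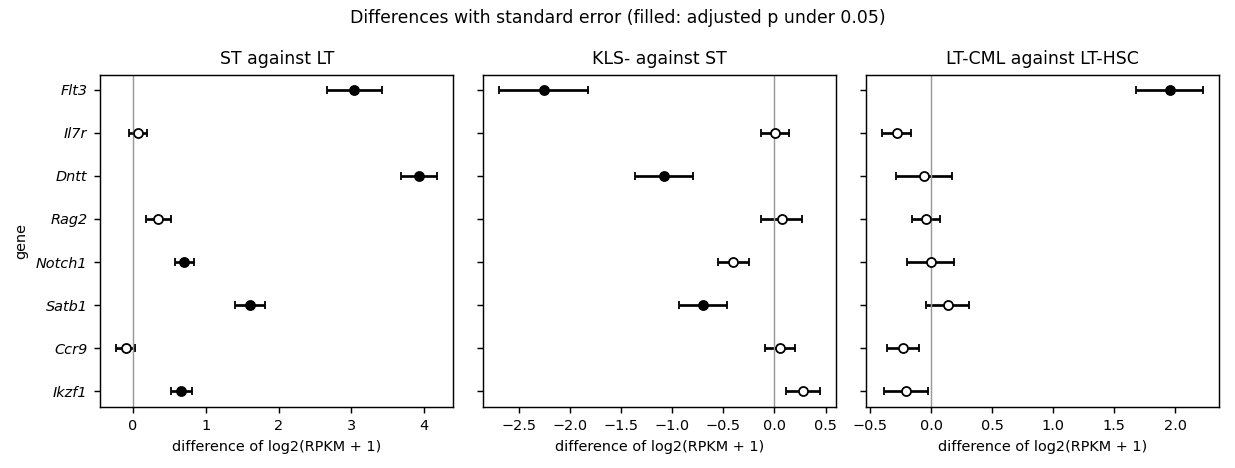
Differences of log2(RPKM + 1) with their standard errors from limma for the 8 genes tested, between ST and LT cells, KLS- and ST cells, and LT-CML and LT-HSC cells, each panel with its own linear axis. Filled points have an adjusted p under 0.05, which are Flt3, Dntt, Notch1, Satb1 and Ikzf1 in the first panel, Flt3, Dntt and Satb1 in the second and Flt3 in the third.

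From ST cells to KLS- progenitors, Flt3, Dntt and Satb1 fell. Of the 8 genes tested, 3 were lower in KLS- cells and 0 were higher, in a comparison in which 21.2% of all genes tested were lower and 18.8% higher. Flt3 fell by 2.26 on the log2(RPKM + 1) scale (SE 0.43, adjusted p = 0.00387), Dntt by 1.08 (SE 0.29, adjusted p = 0.0165) and Satb1 by 0.70 (SE 0.24, adjusted p = 0.0429). The share of 3 in 8 should be read against the large share of all genes that changed between these stages. KLS- levels of Flt3 were 0.163 of the ST level in normal and 0.238 in CML cells, and those of Dntt 0.282 and 0.708. The Flt3 call was kept with each of the 4 libraries left out in turn. The Dntt call was lost without ST-HSC (-0.61, adjusted p = 0.157) or normal KLS- (-0.72, adjusted p = 0.151), and the Satb1 call without ST-HSC (-0.46, adjusted p = 0.272), ST-CML (-0.93, adjusted p = 0.0605) or CML-KLS- (-0.41, adjusted p = 0.332). Notch1 differed by -0.40 (adjusted p = 0.0649) and Ikzf1 by 0.28 (adjusted p = 0.214). Over all genes tested, 2357 were higher and 2664 lower in KLS- cells, and with upper-quartile scaling 1775 were higher and 3514 lower. That scaling moved the median of all genes from -0.07 to -0.20, and the 3 genes also fell relative to that median.

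The other 4 genes were measured at a level where single reads matter. RPKM values of a gene fell on whole multiples of a common step, and 1 step matched 1 read from the annotated transcript length, so the number of reads behind each value could be given with an exact Poisson interval. The intervals cover counting error only.

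Il7r (ENSMUSG00000003882.4, mm9 chr15:9435916-9459631, minus strand, 8 exons), the receptor chain that binds IL-7, was at 0.234 and 0.300 RPKM in LT-HSC 1 and 2, from 15 and 23 reads. It was at 0.0151 RPKM in LT-CML 1 and 0.0684 RPKM in LT-CML 2, from 1 and 4 reads. ST-HSC had 0.133 RPKM (8 reads), ST-CML 0.284 (17 reads), normal KLS- 0.262 (17 reads) and CML-KLS- 0.157 (9 reads). Both LT-CML libraries were below both LT-HSC libraries, and the 95% interval of LT-CML 1 (0.000381 to 0.0839 RPKM) lay below those of LT-HSC 1 (0.131 to 0.386 RPKM) and LT-HSC 2 (0.190 to 0.450 RPKM), while that of LT-CML 2 (0.0187 to 0.175 RPKM) reached into the former. The difference between the groups, -0.28 on the log2(RPKM + 1) scale (SE 0.12), did not pass the adjustment over all genes (unadjusted p = 0.0474, adjusted p = 0.421 from limma).

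Rag1 (ENSMUSG00000061311.6, mm9 chr2:101478439-101489658, minus strand, 2 exons) and Rag2 (ENSMUSG00000032864.3, mm9 chr2:101464875-101472685, plus strand, 3 exons), the 2 subunits of the recombinase that cuts antigen receptor genes, are neighbours on chromosome 2 and did not vary together. Rag1 was at most 0.105 RPKM. Its reads numbered 8 and 13 in LT-HSC 1 and 2, 2 and 0 in LT-CML 1 and 2, 1 in ST-HSC, 13 in ST-CML, 1 in normal KLS- cells and 4 in those of CML mice. The 0 reads of LT-CML 2 allow a level of up to 0.0304 RPKM. In the ST stage, the CML library had 13.1 times the level of the normal one, with an exact 95% counting interval from 1.97 to 557.2 times, in a pair without replicates.

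Rag2 was at 0.0443 and 0.0494 RPKM in LT-HSC 1 and 2 (3 and 4 reads), 0 and 0.0324 RPKM in LT-CML 1 and 2 (0 and 2 reads), 0.298 RPKM in ST-HSC (19 reads), 0.332 RPKM in ST-CML (21 reads) and 0.844 RPKM in normal KLS- cells (58 reads), and at 0.0331 RPKM in CML-KLS- cells (2 reads). The normal KLS- library thus held the highest Rag2 level of the 8, and the CML-KLS- library was in the range of the LT libraries. The ratio of normal to CML KLS- cells was 25.5, with a counting interval from 6.75 to 215.6. On the log2(RPKM + 1) scale, which compresses values below 1, it was a difference of -0.84 and so not past the fold of 1 used for pairs of single libraries. Another gene, B230118H07Rik, overlaps 208 exon bases of Rag2 on the opposite strand and 80 exon bases of Rag1 on the same strand and was at 10.1 to 13.3 RPKM. No strand-specific counting is stated, so reads in the shared bases cannot be assigned with certainty.

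Ccr9 (ENSMUSG00000029530.8, mm9 chr9:123587557-123691089, plus strand, 4 exons), the chemokine receptor for thymus and gut homing, was at 0.401 and 0.181 RPKM in LT-HSC 1 and 2 (24 and 13 reads) and at 0.113 and 0.0731 RPKM in LT-CML 1 and 2 (7 and 4 reads). It was at 0.0531 RPKM in ST-HSC (3 reads), 0.161 RPKM in ST-CML (9 reads), 0.296 RPKM in normal KLS- (18 reads) and 0.0187 RPKM in CML-KLS- cells (1 read). Unlike Dntt or Flt3, it was not raised in ST cells. A processed transcript on the same strand, Gm17200, shares 269 exon bases with it, so that part of these few reads may be ambiguous. The LT groups did not overlap, but their difference of -0.24 (SE 0.13) did not pass the threshold (adjusted p = 0.588 from limma). The normal KLS- library had 15.8 times the level of CML-KLS-, with a counting interval from 2.50 to 659.6.

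**Figure D3:**
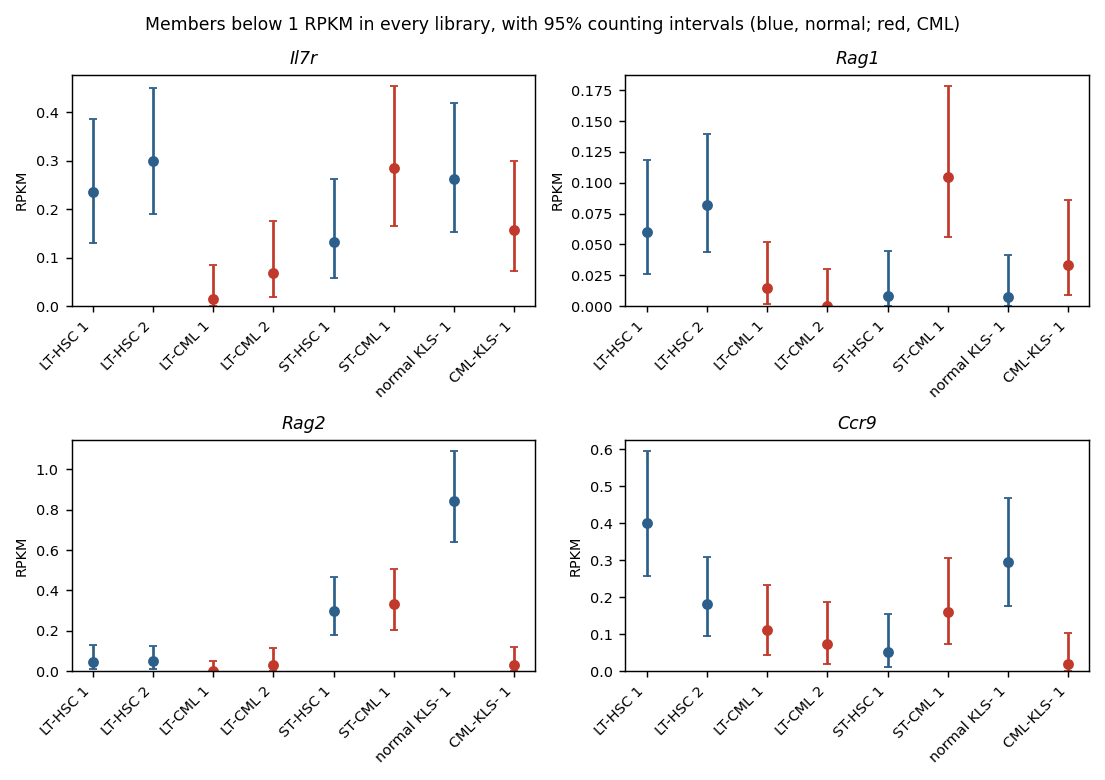
RPKM (linear axes from 0, a separate scale for each gene) of Il7r, Rag1, Rag2 and Ccr9 in the 8 libraries, blue for normal and red for CML, with exact 95% Poisson intervals on the reads behind each value. The Rag2 interval of normal KLS- cells (0.641 to 1.09 RPKM) lies above that of CML-KLS- cells (0.00401 to 0.120 RPKM).

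The CML and normal libraries were then compared within each stage. In LT cells, the one stage with replicates, Flt3 averaged 15.6 ± 5.17 RPKM in LT-CML (SD, n = 2) and 3.23 ± 1.01 RPKM in LT-HSC cells (SD, n = 2), 4.82 times higher. The difference of 1.95 on the log2(RPKM + 1) scale (SE 0.28) passed the threshold (adjusted p = 0.0184 from limma). It was the 1 call among the 8 genes tested, where 0.939% of all genes tested were higher and 0.788% lower in LT-CML cells, and an unadjusted p under 0.05 was reached by 2 of the 8, Flt3 and Il7r. The call was lost when any 1 of the 4 LT libraries was left out, though the difference stayed between 1.63 and 2.28. Such fits leave 1 library in a group and called fewer of all genes tested, so the loss is not particular to Flt3. Between the LT libraries with Ddx3y, Flt3 was at 19.2 RPKM in CML against 2.52 RPKM in normal cells, and between those without it at 11.9 against 3.95 RPKM. LT-CML 2 also held Xist, so the first of these pairs was not matched for sex. Satb1, Notch1, Dntt, Rag2 and Ikzf1 differed by 0.13, -0.01, -0.06, -0.04 and -0.21 between LT-CML and LT-HSC cells and did not pass. The LT groups did not overlap for Flt3, nor for Il7r, Rag1, Rag2, Ccr9 and Ikzf1, which were lower in CML. With 2 libraries in each group such separation is easily reached, and its share over all genes was not computed.

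Other values differed between the LT libraries. The summed level of 8 neutrophil and monocyte precursor genes, among them Mpo, was 203 and 461 RPKM in LT-HSC 1 and 2, 206 RPKM in LT-CML 1 and 3203 RPKM in LT-CML 2, and none of the 8 was at 0 in every library. Flt3 was at 11.9 RPKM in LT-CML 1 and 19.2 RPKM in LT-CML 2, and the part of myeloid precursor transcripts in these values was not tested. Of the genes with higher values in both ST libraries than in any LT library, Cd48 was at 16.8 and 29.5 RPKM in LT-CML 1 and 2 against 10.5 and 5.17 RPKM in LT-HSC 1 and 2 (difference 1.47, adjusted p = 0.109 from limma). Cd53 was at 16.0 and 35.7 RPKM against 7.10 and 11.2 RPKM (difference 1.33, adjusted p = 0.179), and the values of both genes did not overlap between the LT groups. Dntt, given above, overlapped between the groups. Cd34, Lax1, Selplg and Foxp1, named below and also of this kind, were higher in both LT-CML libraries without overlap. Cd34 was at 70.1 and 68.5 RPKM in LT-CML 1 and 2 against 62.4 and 37.5 RPKM in LT-HSC 1 and 2. Lax1 was at 11.5 and 9.85 RPKM against 9.82 and 7.02 RPKM. Ly6a, Itgb7, Ikzf1, and Sox4 and Tcf7, named below, went the other way without overlap. Ly6a was at 76.0 and 72.4 RPKM in LT-CML 1 and 2 against 84.8 and 96.1 RPKM in LT-HSC 1 and 2. Itgb7 was at 0.686 and 0.657 RPKM against 1.43 and 2.19 RPKM, and Ikzf1, given above, was also lower in both LT-CML libraries. Slamf1, which is high in LT cells, was at 35.5 and 25.4 RPKM in LT-CML 1 and 2 against 14.3 and 10.7 RPKM in LT-HSC 1 and 2. The part of ST cells in the LT sorts was not tested.

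In the other stages, the Flt3 level of the CML library was 1.16 times that of the normal one in ST cells and 1.70 times in KLS- cells, differences of 0.21 and 0.71 on the log2(RPKM + 1) scale in pairs without replicates. Of the 8 genes, 0 differed by more than 1 in ST cells, where 4.04% of all genes tested did, and 0 in KLS- cells, where 3.24% did. These pairs were not tested on their own. Dntt was lower in ST-CML than in ST-HSC by 0.85 and Satb1 by 0.61, while Notch1 differed by 0.14 and Ikzf1 by -0.15. For Dntt, the 535 reads of ST-CML against 1002 of ST-HSC gave a ratio of 0.539 with a counting interval from 0.484 to 0.599, which holds for these libraries and not for the conditions. Satb1 was also lower in CML-KLS- than in normal KLS- cells, by 0.69, whereas Dntt was higher by 0.39.

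Whether the CML difference of a gene depended on the stage was tested with interaction terms, in which the single ST and KLS- libraries are assumed to vary like the LT libraries. The Flt3 difference was larger in LT than in ST cells by 1.74 (SE 0.48, unadjusted p = 0.00766) and larger than in KLS- cells by 1.24 (SE 0.48, unadjusted p = 0.0343), but neither passed the adjustment (adjusted p = 1 from limma for both). The Rag2 difference in LT cells exceeded that in KLS- cells by 0.79 (unadjusted p = 0.0051, adjusted p = 0.701), and the Satb1 difference exceeded that in ST cells by 0.74 (unadjusted p = 0.0425) and that in KLS- cells by 0.83 (unadjusted p = 0.028). Of the 8 genes tested, 0 passed in either interaction, against 0.0239% of all genes tested in each. An unadjusted p under 0.05 was reached by 2 of the 8 for ST cells and by 3 of the 8 for KLS- cells.

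LT and ST cells were also combined, with 3 CML stem cell libraries against 3 normal HSC libraries. In that comparison 0 of the 8 genes passed the threshold, with 0 at an unadjusted p under 0.05, where 2.34% of all genes tested were called in either direction. Flt3 averaged 34.3 ± 32.5 RPKM in CML stem cells and 22.7 ± 33.7 RPKM in normal HSCs (SD, n = 3 each), and the difference of 1.37 (SE 1.10) did not pass (adjusted p = 0.691 from limma), with LT and ST libraries far apart within each group. With LT or ST as a covariate the same difference had an adjusted p of 0.0794.

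The members were set beside lists of genes of the same pathways. Of 9 genes of IL-7 and FLT3 receptor signalling, all tested, 1 was higher in ST than in LT cells and 0 lower. Of all genes tested, 2.13% were higher and 2.74% lower in this comparison. The higher gene of the list was Il2rg, the common gamma chain that pairs with the IL-7 receptor. It was at 129.9 and 126.3 RPKM in the ST libraries and 61.8 to 68.2 RPKM in the LT libraries (difference 0.97, SE 0.11, adjusted p = 0.00343 from limma). The call was lost without ST-HSC (adjusted p = 0.0598) or ST-CML (0.0509). The cytokine genes Flt3l and Il7 and the kinases Jak1 and Jak3 were among the 8 that did not pass. In KLS- against ST cells, 6 of the 9 were lower and 1 was higher, where 21.2% of all genes tested were lower and 18.8% higher, and Il2rg fell to 29.8 and 31.2 RPKM.

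None of the 9 genes of end joining at antigen receptor breaks, among them Xrcc5, Xrcc6, Prkdc and Lig4, passed between ST and LT cells, while Dntt, which acts at the same joints, rose. The 9 had a median difference of 0.03. Of 18 Notch pathway genes tested, of 22 listed, 0 passed between ST and LT cells, with a median of 0.16, and 6 were lower and 1 higher in KLS- than in ST cells. Of 3 relatives of Ikzf1 and Satb1 tested, of 5 listed, 0 passed between ST and LT cells and 2 were lower in KLS- cells. Of all genes tested, 21.2% were lower and 18.8% higher in KLS- than in ST cells. In LT-CML against LT-HSC cells 0 genes of these 4 lists passed, where 0.939% of all genes tested were higher and 0.788% lower.

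Of 25 lymphoid transcription factors tested, of 28 listed, 3 were higher in ST than in LT cells and 0 lower. They were Sox4 (difference 0.72, adjusted p = 0.0485), Foxp1 (0.66, adjusted p = 0.0419) and Tcf7 (0.48, adjusted p = 0.034), factors of early B and T cell development, each with a call that was kept in 1 of the 6 fits that left out a library. Tcf7 was at most 0.598 RPKM in any library. Of all genes tested, 2.13% were higher in ST than in LT cells and 2.74% lower. In KLS- against ST cells, 12 of the 25 were lower and 0 higher, again beside 21.2% lower and 18.8% higher among all genes tested. Between LT-CML and LT-HSC cells 1 factor passed, beside 0.939% higher and 0.788% lower among all genes tested. Hhex, a homeobox factor needed for early lymphoid progenitors, was at 21.6 and 22.2 RPKM in LT-HSC 1 and 2 and at 10.2 RPKM in each LT-CML library (difference -1.03, SE 0.18, adjusted p = 0.0416 from limma). It was also lower in the CML library of the other stages, at 12.6 RPKM in ST-CML against 30.6 RPKM in ST-HSC and 4.25 RPKM in CML-KLS- against 17.6 RPKM in normal KLS- cells. In the pooled stem cell comparison Hhex differed by -1.09 (SE 0.18, adjusted p = 0.0226). The LT call was lost with any 1 of the 4 LT libraries left out, with differences of -1.05 to -1.01, in fits that called fewer of all genes tested.

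Among 7 homing receptors of progenitors, 2 were higher in ST than in LT cells and 0 lower. For this and the next list, the shares of all genes tested were 2.13% higher and 2.74% lower. Itgb7, an integrin chain of gut-homing lymphocytes, and Selplg, the ligand of P-selectin, differed by 0.82 and 0.81 (adjusted p = 0.0232 and 0.0255). Of 12 early lymphoid surface and signalling genes, 6 were higher in ST than in LT cells and 0 lower, with a median difference of 0.91. The largest differences were those of Cd53 (2.22, adjusted p = 0.0152), Cd34 (1.78, adjusted p = 0.0278), Lax1 (1.45, adjusted p = 0.00657) and Cd27 (1.01, adjusted p = 0.0182). The Lax1 call was lost without ST-HSC alone (difference 1.10). Those of Itgb7, Selplg, Cd53, Cd34 and Cd27 were lost without either ST library, and all of these but Cd53 also without at least 1 LT library. For the surface and signalling genes called but not named, these fits are not given. Cd34 is a marker of the ST stage itself. Several of these genes are also expressed in myeloid progenitors. The lists were not tested as sets.

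**Figure D4:**
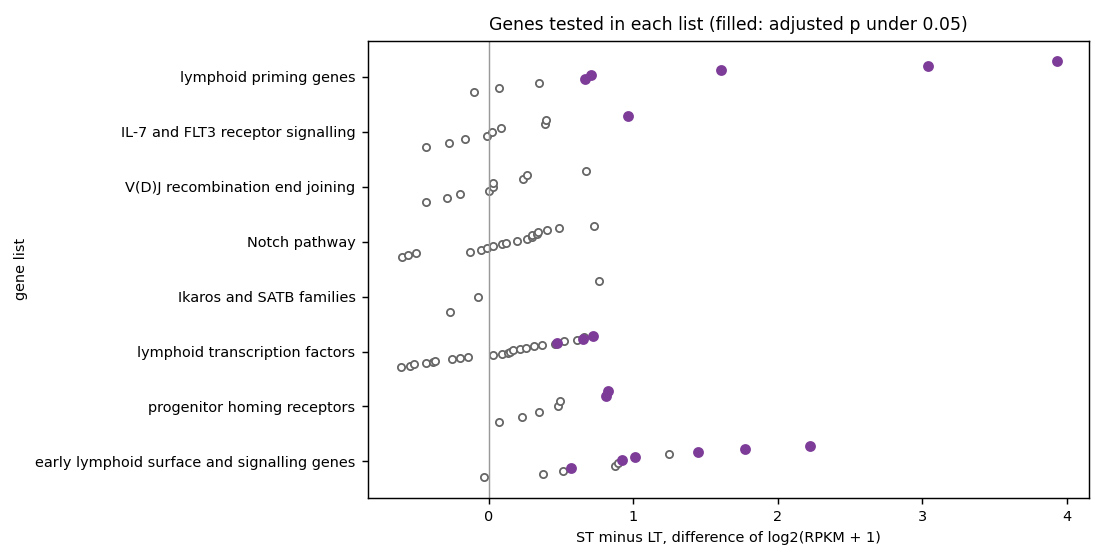
Differences of log2(RPKM + 1) between ST and LT cells for each gene tested in the member list and the 7 pathway lists, with 1 point for a gene, filled where the adjusted p from limma is under 0.05. The filled points of the members reach 3.93 (Dntt), those of the homing receptors 0.82 (Itgb7) and those of the surface and signalling genes 2.22 (Cd53), while the end joining, Notch and Ikaros and SATB lists have no filled point.

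Marker genes of B cells, T cells and other blood cells, some of them genes of precursors, were examined beside these differences. The summed level of 8 B cell genes was 31.8 to 43.3 RPKM in the stem cell libraries other than ST-CML, where it was 68.2 RPKM, and 10 T cell genes summed to 17.7 RPKM in ST-HSC and 12.2 RPKM in ST-CML against 8.48 to 11.0 RPKM in LT libraries. Most of the B cell sum was Cd79b, at 30.2 to 46.3 RPKM in every library, and the highest value of a T cell gene was that of Lck. Of the B cell genes 2, and of the T cell genes 6, were below 1 RPKM in every library. Between ST and LT cells, 1 of 6 B cell genes tested was called higher, as was 1 of 7 T cell genes, and 0 were called lower. Of all genes tested, 2.13% were higher and 2.74% lower. The median differences were 0.47 and 0.05. Ms4a1 (-0.34), Cd2 (-0.36), Ptcra (-0.29) and Cd3d (-0.16) had lower values in ST cells but did not pass. Between LT-CML and LT-HSC cells, 1 of the 6 B cell genes was called lower, beside 0.788% of all genes tested. Vpreb1, a surrogate light chain gene of B cell precursors, was higher in ST than in LT cells (1.75 and 6.48 RPKM against 0.395 to 1.10 RPKM, difference 1.49, adjusted p = 0.0392 from limma), as was Lck, a T cell kinase (11.7 and 7.22 RPKM against 4.16 to 4.94 RPKM, difference 0.88, adjusted p = 0.0239). The Vpreb1 call was kept in 2 of the 6 fits that left out a library and the Lck call in 3 of the 6. With other processing they were kept in 3 of 6 and 5 of 6 settings. Without ST-CML the Vpreb1 difference was 0.68, and without ST-HSC the Lck difference was 0.57. Cd79a, a B cell receptor chain, was lower in LT-CML than in LT-HSC cells (0.0728 and 0.331 RPKM against 1.66 and 3.34 RPKM, difference -1.51, adjusted p = 0.0357), whereas it was at 6.43 RPKM in ST-CML against 0.201 RPKM in ST-HSC. The Cd79a call was kept without LT-HSC 1 and lost without LT-HSC 2, LT-CML 1 or LT-CML 2, in fits that called fewer of all genes tested. It was also lost with quantile normalization (adjusted p = 0.0596 from limma), with upper-quartile scaling (0.0751) and with no filter on low values (0.424). The summed level of 6 natural killer cell genes was 0.451 to 3.69 RPKM and that of 6 dendritic cell genes 1.36 to 3.52 RPKM, and neutrophil and monocyte precursor genes summed to 361 RPKM in ST-HSC and 2094 RPKM in ST-CML. Genes of the erythroid and megakaryocyte lineages were lower in ST than in LT cells in 4 of 8 cases, beside 2.74% of all genes tested. The part of any such cells in the differences of the lymphoid priming genes was not tested.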

How the data were processed

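RNA of sorted cells was made into libraries with an ultra-low-input kit primed with oligo-dT. The authors sequenced paired-end reads, mapped them to mm9 with SeqNova CS and deposited RPKM values for each gene and library. The gene annotation and the rule for reads with several matches are not given in the sources used here. RPKM are not counts, so no count test was used.

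Values were compared in R 4.3.3 with limma 3.58.1 (linear fits, empirical Bayes with an intensity trend, two-sided tests, Benjamini-Hochberg over all genes tested, threshold 0.05) on log2(RPKM + 1), which understates changes of low genes. Tests covered the 12561 of 20207 genes whose RPKM summed to more than 1 across the 8 libraries. LT-CML against LT-HSC used 1 mean for each of 6 populations, stages used disease and stage as additive terms, and pooled stem cells used no covariate. Steps in low values gave the reads behind them. Of 3472 low genes, 94.4% had values within 0.05 of a whole number of reads, and GENCODE M1 transcript lengths (NCBI Build 37) set the scale. Python 3.11 with pandas 2.3.3 and scipy 1.17.1 was used otherwise.

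The genes followed and the lists were chosen with earlier results of these data known. Named list genes were those past the threshold in LT-CML against LT-HSC or in ST against LT cells, at most 4 a list by size of the difference, and 1 gene of a list is not reported here. Vpreb1, Lck, Cd79a and Ly6a, and list genes named as not passing, were chosen after their values were seen. Alternatives were another pseudocount, filter, scaling, set of libraries or covariate, and leaving out each library.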

Additional observations from a re-analysis of the deposited data

How the results depend on the processing

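No paired analysis was possible because the labels number the LT-CML libraries but tell the LT-HSC libraries apart by age alone, so that the numbers 1 and 2 used here for LT-HSC are names and pair nothing. For the genes tested between ST and LT cells, directions were kept in all alternatives except for Il7r and Ccr9, and those of Flt3, Satb1, Ikzf1, Il7r, Rag2 and Ccr9 between LT-CML and LT-HSC cells were kept in all alternatives. Without a filter on low values, 0 genes were called in LT-CML against LT-HSC cells (0 of the members), 173 in pooled CML stem against normal HSCs, 127 in ST against LT cells (1 member, Dntt), 0 members in KLS- against ST cells, and 407 and 59 in the interactions with ST and with KLS- cells. With LT or ST as a covariate 543 genes were called in the pooled comparison. A pseudocount of 0.1 left 1 member called in KLS- against ST cells and 0 genes in each interaction. A mean of at least 1 RPKM gave 5 genes in the interaction with ST and 1 in that with KLS- cells, where quantile normalization gave 1 and upper-quartile scaling 0. The causes of these shifts were not tested.

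Leaving out 1 library at a time gave 6 to 74 genes called in LT-CML against LT-HSC cells (0 members throughout), 115 to 217 in the pooled comparison, 110 to 718 in ST against LT cells (2 to 5 members) and 2511 to 3350 in KLS- against ST cells (1 to 3 members). Directions that turned belonged to small differences that were not called. In LT-CML against LT-HSC cells, Notch1 was 0.030 with quantile normalization and ranged from -0.071 to 0.058 with a library left out, and Dntt from -0.29 to 0.17. In ST against LT cells, Il7r ranged from -0.14 to 0.28 and Ccr9 from -0.31 to 0.11. In KLS- against ST cells, Il7r was -0.044 with upper-quartile scaling and ranged from -0.20 to 0.21 with a library left out, Ccr9 ranged from -0.15 to 0.26, and Rag2 was -0.23 with a pseudocount of 0.1 and ranged from -0.34 to 0.48, the last past the threshold (adjusted p = 0.048 from limma, without CML-KLS-). Where 1 library of a group remained, it was assumed to vary like the other groups. At 17.8 to 23.9 M reads, levels of Rag1, Rag2, Il7r and Ccr9 rest on at most 58 reads, and changes of a few reads were not detectable.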

Other observations

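Genes with levels like those of Flt3 were looked for among well expressed genes, which left out Notch1 and Satb1. Over the means of the 6 populations on the log2(RPKM + 1) scale, the 5 highest Pearson correlations with Flt3 among 5446 genes with a library of at least 10 RPKM were those of Fgd2 (0.990), Faf2 (0.984), Iqgap1 (0.983), 4930444A02Rik (0.979) and Stx5a (0.977). Their range was much narrower than that of Flt3. Fgd2 was at 3.63 to 5.80 RPKM in the LT-HSC libraries and 13.7 and 15.0 RPKM in the ST libraries. Faf2 was between 10.8 and 16.1 RPKM in all 8. Dntt ranked 185 of the 5446 (0.771) and Ikzf1 1108 (0.371). Across the 8 libraries, Flt3 had a Pearson correlation of 0.828 with Notch1 and 0.770 with Satb1. With 6 populations of the same 8 libraries, all of these are descriptions of likeness and no test was made.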
